A study of Cardamine hirsuta with 24 samples.

Results

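*XTH33* (CARHR010710), *XTR8* (CARHR150990) and *XTH8* (CARHR011830) are 3 of the 29458 *Cardamine hirsuta* genes counted in these libraries. They were chosen by their counts in Dex against Mock, which were higher on average over the times in seedlings with induced *ChCUC1*, so this difference is given for them as a description, with no test. RNA was sequenced from shoot apices with young leaves of 12-day-old seedlings of the Oxford genotype. In the Dex groups the seedlings stood in 10 µM dexamethasone, and in the Mock groups in 0.1% DMSO. Apices were collected after 2, 4, 6 and 8 h, with 3 replicates of 20 pooled seedlings in each of the 8 groups. All seedlings, the Mock groups included, carried *RCOp::LhG4:GR; Op::ChCUC1:Venus*. In this system the *RCO* promoter, which works in small foci of the leaf margin, makes an activator that enters the nucleus when dexamethasone binds it and then switches on a ChCUC1:Venus fusion. The counts of *ChCUC1* hold transgene and endogenous reads alike.

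All 3 genes are named after *Arabidopsis thaliana* counterparts that encode xyloglucan endotransglucosylase/hydrolases (XTHs). Xyloglucan is the hemicellulose that coats cellulose in the primary walls of eudicots. XTHs cut its backbone and either rejoin the cut end to another xyloglucan chain, which lets new polymer enter the wall, or pass it to water, which shortens the chain. In *A. thaliana* XTH33 is anchored at the plasma membrane, whereas most of the family is secreted into the wall. XTR8, also called XTH31 in *A. thaliana*, belongs with XTH32 to a small branch of the family for which hydrolysis of xyloglucan is known. XTH8 is a member of the large branch of transglucosylases, and less is known of its role.

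Libraries held from 12.9 M to 22.96 M gene counts (median 19.5 M). Values per library are given as CPM, counts divided by the TMM-adjusted library size and brought to one common scale. CPM do not account for transcript length, so levels are compared between samples for 1 gene and never between genes. *ChCUC1*, which checks the labels, lay between 6.18 and 11.6 CPM in the 12 Dex libraries and between 0.778 and 4.40 CPM in the 12 Mock libraries, with no overlap. The 4 shoot markers with an identifier (*KNAT1*, *ANT*, *AS2* and *YAB5*) had counts in all 24 libraries, with a sum of 42.0 to 56.2 CPM in Dex and 33.8 to 51.2 CPM in Mock. For the 3 genes, replicate 1 was the highest Dex library or level with it at every time. In Mock it was the lowest library before 8 h and level with the others at 8 h. In some Dex groups replicate 2 lay farther from the others than replicate 1 did. Values of the 3 genes are also given for replicates 2 and 3 alone. The labels do not say whether replicates were grown or harvested separately, so p-values measure the spread between these pools.

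*XTH33* was higher in Dex than in Mock in most, but not all, of the libraries compared. In replicates 1, 2 and 3, *XTH33* had 20.5, 10.8 and 19.1 CPM in Dex at 2 h, against 4.44, 11.3 and 8.996 CPM in Mock at 2 h. At 4 h it had 26.5, 11.3 and 9.96 CPM in Dex, against 0.437, 6.87 and 4.93 CPM in Mock. The groups overlapped at 2 h, where replicate 2 of Dex was below replicate 2 of Mock, and were apart at 4 h. At 6 h *XTH33* had 19.0, 6.58 and 7.70 CPM in Dex, against 0.519, 3.20 and 5.68 CPM in Mock. At 8 h it had 14.3, 4.85 and 7.93 CPM in Dex, against 2.04, 1.81 and 1.78 CPM in Mock. Dex and Mock did not overlap at 6 h or 8 h, and the 3 Mock libraries at 8 h lay close together. The values of 0.437 and 0.519 CPM in replicate 1 of Mock rest on 7 and 8 counts.

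The Dex and Mock libraries of *XTR8* did not overlap at 2, 4 and 8 h and overlapped at 6 h. It had 96.5, 31.5 and 81.6 CPM in replicates 1, 2 and 3 of Dex at 2 h, against 15.8, 30.02 and 25.1 CPM in Mock. At 4 h *XTR8* had 60.6, 23.9 and 23.2 CPM in Dex, against 3.24, 15.8 and 18.9 CPM in Mock. The gap between the groups was narrow, above all at 2 h, where the lowest Dex library was only slightly above the highest Mock library. At 6 h *XTR8* had 98.1, 20.9 and 28.8 CPM in Dex, against 1.95, 23.2 and 22.05 CPM in Mock. At 8 h it had 90.4, 38.5 and 71.3 CPM in Dex, against 19.2, 22.5 and 19.4 CPM in Mock. Replicate 1 of Dex was the highest library at every time, and at 6 h replicate 2 of Dex was below replicates 2 and 3 of Mock.

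*XTH8* behaved like *XTH33* in its fall over time and like *XTR8* in overlapping at 6 h. It had 50.8, 24.9 and 51.2 CPM in replicates 1, 2 and 3 of Dex at 2 h, against 14.4, 23.63 and 18.7 CPM in Mock. At 4 h *XTH8* had 50.4, 22.3 and 21.6 CPM in Dex, against 5.80, 12.4 and 12.0 CPM in Mock. The Dex and Mock groups were apart at both times, by less at 2 h than at 4 h. At 6 h *XTH8* had 41.1, 9.35 and 17.3 CPM in Dex, against 2.08, 10.7 and 12.4 CPM in Mock. At 8 h it had 27.2, 6.66 and 19.9 CPM in Dex, against 4.55, 5.43 and 4.40 CPM in Mock. Replicate 2 of Dex was the lowest Dex library at 6 h and 8 h, and at 8 h it was close to replicate 2 of Mock.

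**Figure D1:**
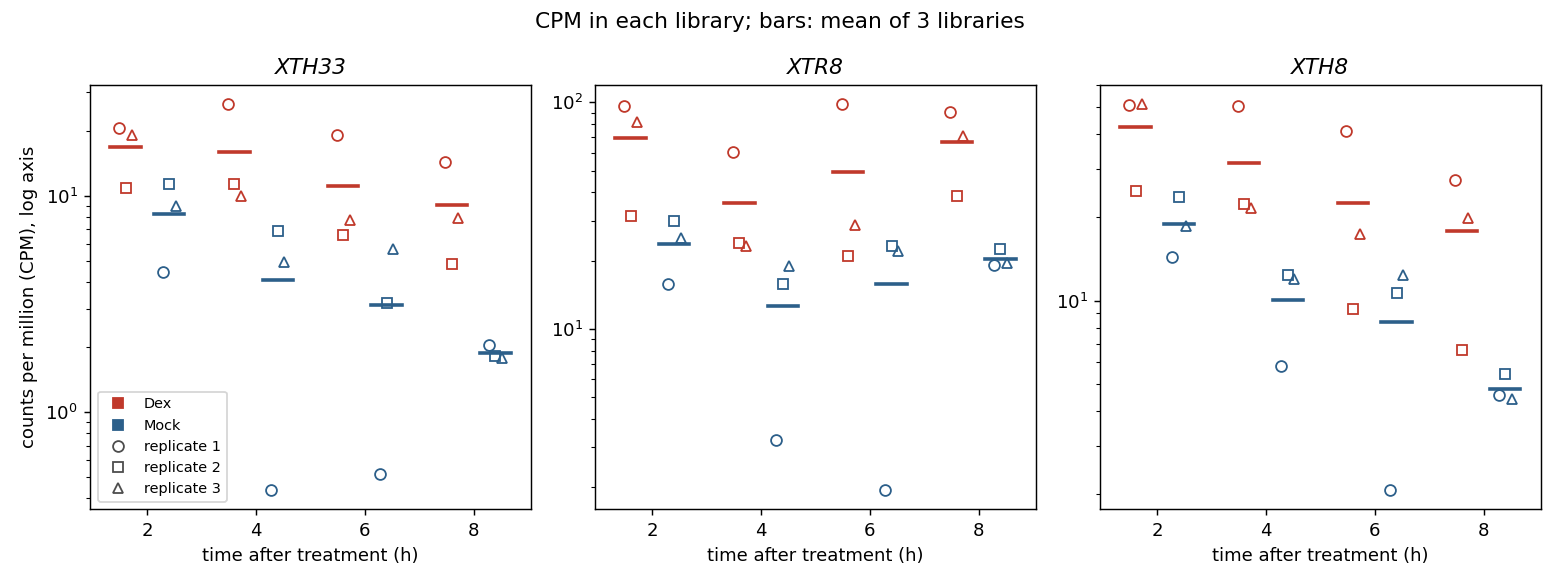
CPM (log axis, with its own range in each panel) of *XTH33*, *XTR8* and *XTH8* in each of 24 libraries by hours after treatment, Dex left of Mock, with a symbol for each replicate number and a bar for the mean of 3 libraries. Replicate 1 of Mock is far below the other Mock libraries at 4 h and 6 h for *XTH33* (0.437 and 0.519 CPM) and *XTR8* (3.24 and 1.95 CPM), and at 8 h the 3 Mock libraries of each gene lie together.

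Averaged over the times, the fitted log2 fold change of Dex against Mock was 1.77 ± 0.36 (SE) for *XTH33*, 1.61 ± 0.37 for *XTR8* and 1.53 ± 0.30 for *XTH8*, or 3.40-, 3.05- and 2.89-fold. The SE and the calls of this average treat the 24 libraries as independent. Yet Dex libraries with the same replicate number deviated together across times (median r = 0.53 over 18 pairs), so this SE can be too small. In that comparison 2962 of 21689 genes (13.7%) were called at an adjusted p under 0.05 and a fold over 1.5, 1033 of them higher and 1929 lower in Dex. By fold, the 3 genes stood at places 83, 102 and 113 among the 1033 called higher (4.76% of all genes, with 8.89% lower), as the choice on this comparison entails. At 2, 4, 6 and 8 h the log2 fold change was 1.02, 1.97, 1.81 and 2.26 for *XTH33*, with standard errors of 0.69 to 0.75. For *XTR8* it was 1.56, 1.51, 1.64 and 1.71 at the same times, and for *XTH8* 1.16, 1.65, 1.42 and 1.90. The value at a single time depended on single libraries. When 1 library or 1 replicate number was left out, *XTH33* ran from 0.56 to 1.57 at 2 h, 0.85 to 2.79 at 4 h, 0.69 to 2.74 at 6 h and 1.75 to 2.57 at 8 h. *XTR8* ran from 1.04 to 2.13, 0.44 to 2.15, 0.14 to 2.42 and 1.39 to 2.101 at these times, and *XTH8* from 0.85 to 1.64, 0.85 to 2.04, 0.21 to 2.03 and 1.44 to 2.43. In pooled apices, a change in the number of cells that express a gene and a change in RNA per cell cannot be told apart.

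Whether the difference between Dex and Mock changed from 2 h to 8 h was tested as an interaction. The log2 fold change was larger at 8 h than at 2 h by 1.24 ± 1.01 for *XTH33*, by 0.15 ± 1.02 for *XTR8* and by 0.74 ± 0.84 for *XTH8*. None of these passed the test (adjusted p = 0.9999 each, edgeR's quasi-likelihood test). The comparison called 0% of the genes tested by edgeR, although 937 genes had an unadjusted p under 0.05, and DESeq2 called 2. At this spread even a difference of the size measured for *XTH33* could not be told from 0.

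The size of the difference varied with the replicate number, which here sorts the libraries and does not pair them. Deviations from group means of same-numbered Dex and Mock libraries at a time had a median r of -0.22 over 12 pairs. Over the 4 times, Dex minus Mock in log2 CPM for *XTH33* averaged 3.87 ± 1.66 (SD over times) among libraries numbered 1, 0.76 ± 0.61 among those numbered 2 and 1.15 ± 0.69 among those numbered 3. For *XTR8* the same averages were 3.65 ± 1.54, 0.32 ± 0.43 and 1.06 ± 0.84, and for *XTH8* 2.92 ± 1.02, 0.25 ± 0.44 and 1.23 ± 0.73. In each gene the difference was above 0 at 4 of 4 times in replicates 1 and 3 and at 3 of 4 times in replicate 2. The exception was 2 h for *XTH33* and 6 h for *XTR8* and *XTH8*. Without replicate 1 the fitted average was 0.98 for *XTH33*, 0.75 for *XTR8* and 0.84 for *XTH8*. These were the lowest values when 1 library or 1 replicate number was left out. The highest were 2.26, 2.15 and 2.04.

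**Figure D2:**
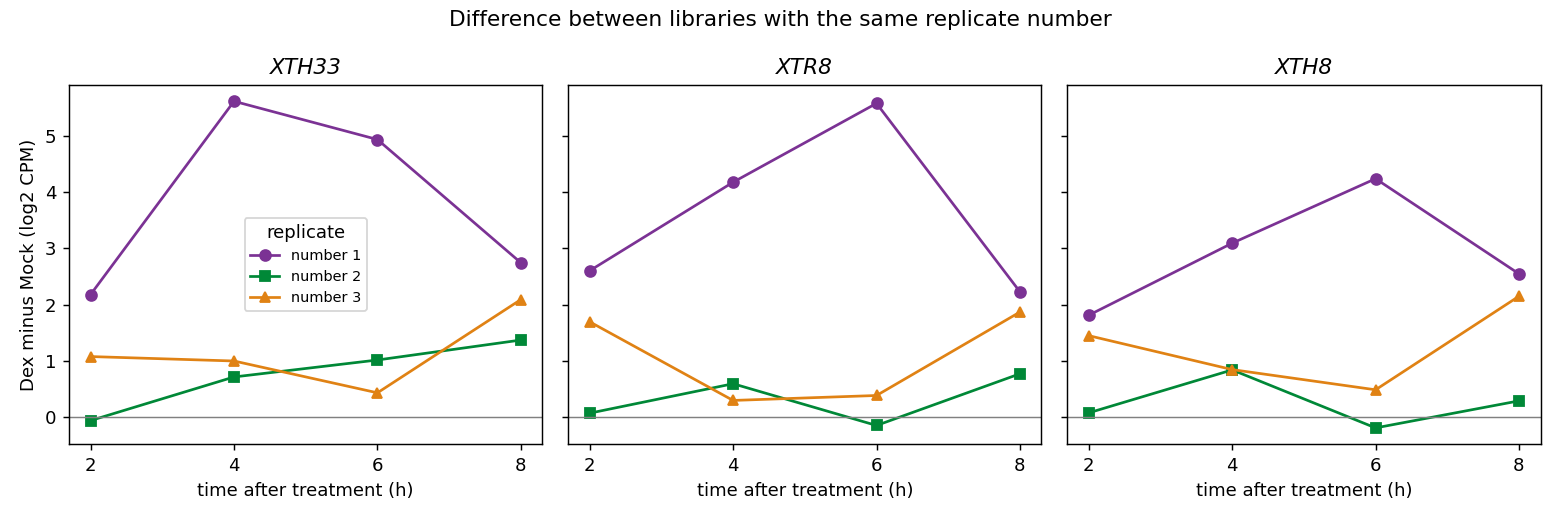
Dex minus Mock in log2 CPM (vertical axis) at each time (hours) for *XTH33*, *XTR8* and *XTH8*, with 1 line for the libraries of each replicate number. The line of replicate 1 lies above the others at every time, with means of 3.87, 3.65 and 2.92, and the line of replicate 2 crosses 0 in each gene.

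Both treatments contributed to the large difference in replicate 1. In Dex, replicate 1 was the highest of the 3 libraries at each time for *XTH33* and *XTR8*, and for *XTH8* at all times but 2 h, when replicate 3 was level with it. In Mock, replicate 1 was the lowest at 2, 4 and 6 h for all 3 genes, and at 8 h it was level with the others. Genes of 2 stress responses went with it. The summed level of 14 heat shock genes, which encode chaperones and their regulators, was 54.4 to 170 CPM in replicate 1 of Dex and 197 to 557 CPM in the other Dex libraries. In replicate 1 of Mock the same sum was 2547, 2257 and 2561 CPM at 2, 4 and 6 h and 652 CPM at 8 h, while the other Mock libraries held 480 to 1235 CPM. Of the heat shock genes, 12 to 14 had counts in each Dex library and 13 or 14 in each Mock library. The summed level of 4 hypoxia genes ran from 33.8 to 128 CPM in replicate 1 of Dex and from 87.4 to 704 CPM in the other Dex libraries, from 220 to 1612 CPM in replicate 1 of Mock, and from 133 to 961 CPM in the other Mock libraries. At 8 h the heat shock sum of Mock was 516 to 652 CPM and its hypoxia sum 923 to 1028 CPM. In these 3 Mock libraries *XTH33* lay between 1.78 and 2.04 CPM, *XTR8* between 19.2 and 22.5 CPM and *XTH8* between 4.40 and 5.43 CPM. For 12 of the 14 heat shock genes and all 4 hypoxia genes the identifier comes only from tables of genes that changed in the same libraries. The differences of these sums between Dex and Mock are therefore not independent evidence. The part of these stress responses in the levels of the 3 genes was not tested.

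The means of *XTH33* and *XTH8* were lower at each later time in both treatments, and those of *XTR8* were not. In Dex at 2, 4, 6 and 8 h *XTH33* averaged 16.8 ± 5.2, 15.9 ± 9.2, 11.1 ± 6.9 and 9.03 ± 4.83 CPM (SD, n = 3 each), and in Mock 8.25 ± 3.50, 4.08 ± 3.30, 3.13 ± 2.58 and 1.88 ± 0.14 CPM. *XTH8* averaged 42.3 ± 15.1, 31.4 ± 16.4, 22.6 ± 16.5 and 17.9 ± 10.4 CPM in Dex, and 18.9 ± 4.6, 10.07 ± 3.70, 8.37 ± 5.52 and 4.80 ± 0.56 CPM in Mock. The order of the 8 groups was the same for both genes except for 1 place, since the Dex group at 8 h stood just above the Mock group at 2 h for *XTH33* and just below it for *XTH8*. *XTR8* averaged 69.9 ± 34.0, 35.9 ± 21.4, 49.3 ± 42.5 and 66.8 ± 26.2 CPM in Dex, and 23.64 ± 7.24, 12.6 ± 8.3, 15.73 ± 11.95 and 20.4 ± 1.9 CPM in Mock. Its lowest mean was thus at 4 h and its 8 h mean close to its 2 h mean in both treatments. In the order of the 8 group means of each gene, the libraries of every pair of neighbouring groups overlapped.

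In Dex, the change from 2 h to 8 h was called for none of the 3 genes in the fit to all libraries without a replicate block. With a replicate block within each treatment *XTH8* was called lower at 8 h, and *XTH33* and *XTR8* were not called. Such a block takes in that Dex libraries with the same number deviated together across times. At 8 h against 2 h the log2 fold change was -0.89 ± 0.69 for *XTH33* (adjusted p = 0.381), -0.07 ± 0.71 for *XTR8* (adjusted p = 0.960) and -1.24 ± 0.59 for *XTH8* (adjusted p = 0.146) by edgeR, with 10.7% of all genes called lower and 6.67% higher. Without replicate 1, *XTH33* and *XTH8* were called at -1.22 (adjusted p = 0.0142) and -1.51 (adjusted p = 0.0209) by edgeR, while *XTR8* was at -0.04 (adjusted p = 0.947).

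In Mock, *XTH33* was 4.39-fold lower at 8 h than at 2 h (log2 fold change -2.13 ± 0.75, adjusted p = 0.0395) and *XTH8* 3.94-fold lower (-1.98 ± 0.62, adjusted p = 0.0220), by edgeR's quasi-likelihood test. All 3 Mock libraries at 8 h were below all 3 at 2 h for both genes. *XTR8* had a log2 fold change of -0.21 ± 0.73 (adjusted p = 0.855 by edgeR) and its libraries overlapped. Of all genes tested, 15.5% were called lower and 8.88% higher at 8 h in this comparison. The call of *XTH33* rested on few libraries: it was lost when any 1 library of either group other than replicate 1 of Mock at 2 h was left out, with adjusted p = 0.0879 to 0.126 by edgeR. The call of *XTH8* was lost without replicate 2 of Mock at 2 h or without any 1 of the Mock libraries at 8 h, with adjusted p = 0.0563 to 0.0733 by edgeR. With replicate 1 left out at every time, both were called, at -2.50 (adjusted p = 0.000217) and -2.10 (adjusted p = 0.00343) by edgeR, and with replicate 2 or replicate 3 left out neither was (adjusted p = 0.12 to 0.295, edgeR). The interaction given above is the test of a difference between Dex and Mock in this fall, and none of the 3 genes passed it.

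Between consecutive times none of the 3 genes was called in either treatment, with unadjusted p of 0.146 or more by edgeR. Of all genes, 5.55% were called in Dex and 14.7% in Mock at 4 h against 2 h. The share was 0.0922% in Dex and 0.0876% in Mock at 6 h against 4 h, and 0.138% in Dex and 0.415% in Mock at 8 h against 6 h. At 4 h against 2 h in Dex the log2 fold change was -0.07 ± 0.68 for *XTH33*, -0.96 ± 0.72 for *XTR8* and -0.42 ± 0.58 for *XTH8*. In Mock the same step was -1.02 ± 0.72 for *XTH33*, -0.91 ± 0.74 for *XTR8* and -0.91 ± 0.60 for *XTH8*. Without replicate 1, the fall of *XTR8* in Dex at 4 h against 2 h was called at -1.27 (adjusted p = 0.0483, edgeR).

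Genes of root hairs, which shoot apices should lack, were counted mainly at 2 h. The summed level of 12 root hair genes was 384, 47.7 and 338 CPM in replicates 1, 2 and 3 of Dex at 2 h, against 2.47, 88.0 and 59.4 CPM in Mock at 2 h. In later libraries it was at most 39.2 CPM in Dex and 13.0 CPM in Mock. *COBL9*, a defining gene of root hair cells, had counts in all libraries at 2 h except replicate 1 of Mock, where it was at 0. In Dex it was also at 0 in replicates 2 and 3 at 4 h and 6 h and in replicates 1 and 2 at 8 h. In Mock it was at 0 in all 3 libraries at 4 h and 8 h and in replicates 1 and 2 at 6 h. In replicate 1 of Mock at 2 h *XTH33* was at 4.44 CPM and *XTH8* at 14.4 CPM, and in the Mock libraries at 8 h they were at most 2.04 and 5.43 CPM. The 12 root hair genes include *NRT2.1*, which encodes a nitrate transporter, so the sum need not come from root hair cells alone. For 9 of the 12 the identifier comes only from tables of genes that changed in the same libraries. The part of the root hair signal in the changes over time was not tested in either treatment.

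The course of *XTR8* was also set against that of the other genes within libraries, as a description chosen after these values were seen. The difference of log2 CPM between a pair of genes in 1 library does not depend on the scaling of that library, and only its change over time is meaningful. *XTR8* minus *XTH8* was 2.03 ± 0.42 in Dex and 2.07 ± 0.04 in Mock at 8 h, against 0.64 ± 0.29 in Dex and 0.30 ± 0.15 in Mock at 2 h (SD, n = 3 each). It was thus higher at 8 h by 1.57 on average (1.38 in Dex and 1.77 in Mock), and in both treatments the libraries at 8 h did not overlap those at 2 h. *XTR8* minus *XTH33* was higher at 8 h by 1.39 (0.97 in Dex and 1.81 in Mock), again without overlap. *XTH33* minus *XTH8* changed by 0.18 (0.41 in Dex and -0.04 in Mock), which was within the spread of 0.31 between replicates. With replicate 1, 2 or 3 left out, the first change ran from 1.39 to 1.68 and the second from 1.19 to 1.64.

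**Figure D3:**
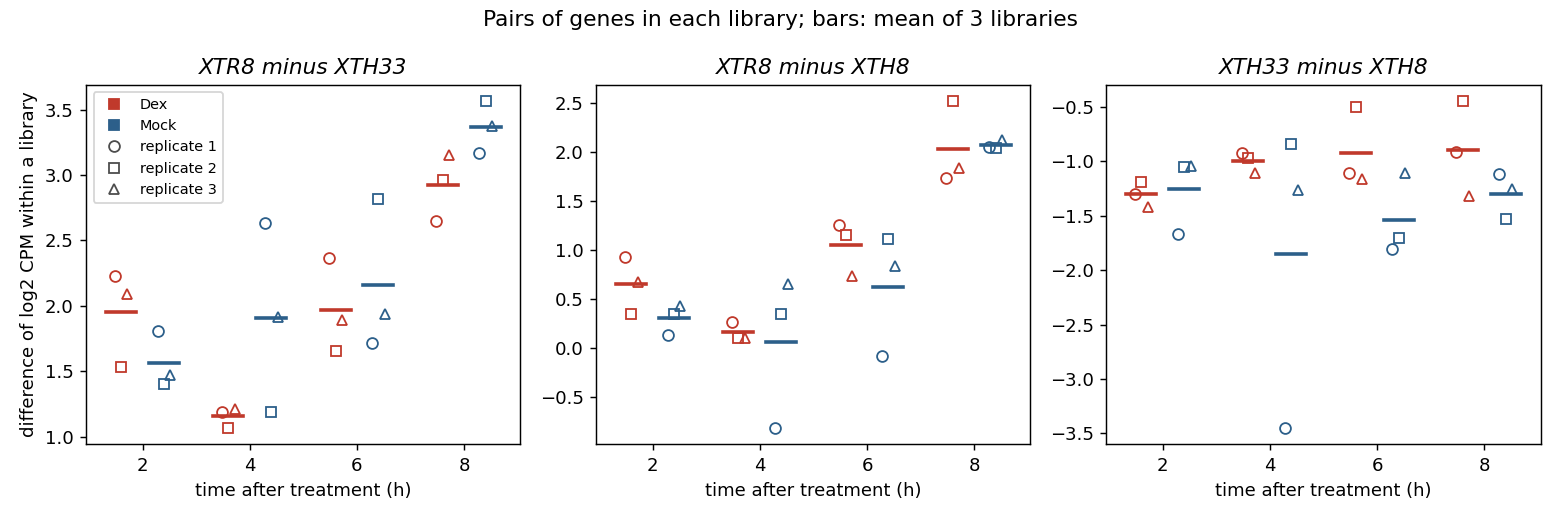
Difference of log2 CPM between *XTR8* and *XTH33*, *XTR8* and *XTH8*, and *XTH33* and *XTH8* within each library by hours after treatment, Dex left of Mock, with bars for the mean of 3 libraries; vertical ranges differ between panels. In the panels with *XTR8* all libraries at 8 h lie above all libraries at 2 h of the same treatment, with mean changes of 1.39 and 1.57, and in the third panel they overlap.

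Within each treatment *XTH33* and *XTH8* also varied together from library to library. Over the 12 Dex libraries their log2 CPM had Pearson's r = 0.961 and Spearman's rho = 0.965, and over the 12 Mock libraries r = 0.891 and rho = 0.881 (adjusted permutation p = 6e-05 and 0.00021 for r, 100000 resamples, two-sided, over 6 relations). Without the 2 libraries farthest from the median r was 0.953 in both, and with replicates 2 and 3 alone it was 0.965 in Dex and 0.968 in Mock. *XTR8* was less close to either. Its r with *XTH33* was 0.638 in Dex and 0.813 in Mock, and with *XTH8* 0.648 in Dex and 0.667 in Mock (adjusted permutation p between 0.0065 and 0.0288). Spearman's rho of these 4 relations lay between 0.434 and 0.664, with an adjusted permutation p under 0.05 only for *XTR8* and *XTH8* in Dex. With replicates 2 and 3 alone r fell to between 0.321 and 0.454, and without the 2 farthest libraries the r of *XTR8* with *XTH33* and *XTH8* in Mock was 0.317 and 0.329, so these relations in Mock rest on replicate 1. The 12 libraries of a treatment share 4 times and 3 replicate numbers and are not fully independent.

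**Figure D4:**
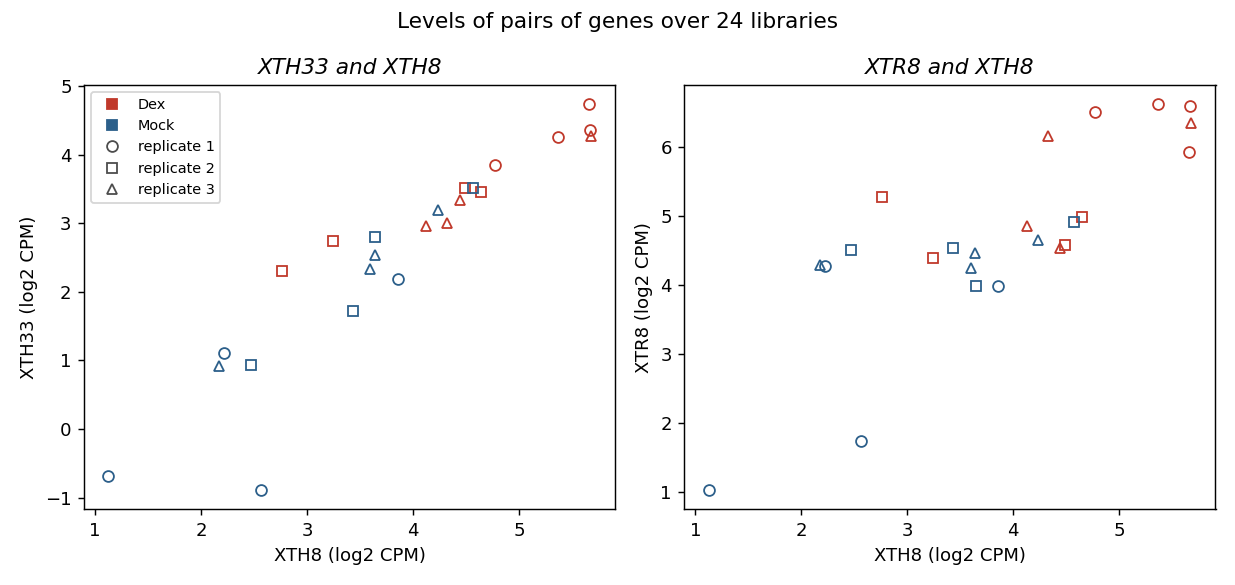
Log2 CPM of *XTH33* against *XTH8* (left) and of *XTR8* against *XTH8* (right) in 24 libraries, coloured by treatment (Dex and Mock) with a symbol for each replicate number. The points of *XTH33* follow those of *XTH8* (r = 0.961 in Dex and 0.891 in Mock), and those of *XTR8* scatter more widely (r = 0.648 in Dex and 0.667 in Mock).

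The group means were then taken out, so that only differences between replicates of 1 group were left. By this measure *XTR8* had a higher r with each of the others than they had with each other. Whether these r differ was not tested. Over the 24 libraries the deviations of *XTR8* had r = 0.938 with those of *XTH8* and 0.931 with those of *XTH33*, and *XTH33* and *XTH8* had r = 0.854. The 3 genes therefore differed together between replicates, as did many other genes. Among 21688 genes, *XTR8* stood at place 25 and *XTH8* at place 314 in likeness to *XTH33*. For *XTH8*, *XTR8* stood at place 96 and *XTH33* at place 732. For *XTR8*, *XTH8* stood at place 72 and *XTH33* at place 103. Replicate 1 enters all these r, and they were not computed without it.

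The genes most like each of the 3 were looked up among those with an *A. thaliana* name, by Pearson's r of log2 CPM over the 24 libraries, as a description. All libraries of both treatments enter this r, so that it holds the difference between Dex and Mock and the spread of replicate 1. For *XTH33* they were *FLA13* (r = 0.974), *CYCP4;1*, *GlcNAc1pUT1*, *AGP7* and *FLA2* (r = 0.934). *FLA13*, *FLA2* and *AGP7* encode arabinogalactan proteins of the cell surface. For *XTH8* they were *ENODL8* (r = 0.987), *FLA7*, *MCM3*, *BGAL10* and *MCM6* (r = 0.970). MCM3 and MCM6 are subunits of the helicase that opens DNA for replication, FLA7 is another fasciclin-like arabinogalactan protein, and BGAL10 removes galactose from xyloglucan in *A. thaliana*. For *XTR8* they were *MYB29* (r = 0.951), *UGT72E1*, *MYB28*, *UF3GT* and *BAG1* (r = 0.927). MYB28 and MYB29 activate aliphatic glucosinolate synthesis in *A. thaliana*, and UGT72E1 and UF3GT are glycosyltransferases of phenylpropanoids. Above the fifth named gene stood 21 genes without a name for *XTH33*, 14 for *XTR8* and 4 for *XTH8*. *FLA13* and *ENODL8* were at place 1 among all genes, and *MYB29* was at place 3.

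By deviations from the group means these lists of named genes changed in part. *XTH8* was closest to *MCM4* (r = 0.981), *FLA7*, *ENODL8*, *MCM2* and *PAO5*, and thus kept *FLA7* and *ENODL8*. *XTH33* was closest to *BEE1* (r = 0.971), which encodes a transcription factor induced by brassinosteroid, and then to *FLA13*, *TUB5*, *NRT2.3* and *XTR8*. *XTR8* was closest to *UGT72E1* (r = 0.978), *PMEAMT*, *RCI4*, *FLA2* and *RPA70B*. Above the fifth named gene stood 20 genes without a name for *XTH33*, 22 for *XTR8* and 4 for *XTH8*. Among all genes *UGT72E1* was at place 4 for *XTR8*, and *MCM4* at place 2 for *XTH8*.

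Of 33 XTH genes known from *A. thaliana*, 17 had a *C. hirsuta* identifier in the sources used here, and 16 were tested. For 11 of these 17 the identifier comes only from tables of genes that changed in the same libraries, and counts over them can therefore not serve as independent evidence. Apart from *XTH33*, *XTR8* and *XTH8*, 4 of 13 were called higher and 2 lower in the average of Dex against Mock, against 4.76% of all genes called higher and 8.89% lower. Those higher were *XTH32* (0.99 ± 0.23), *XTH7* (0.81 ± 0.16), *XTH4* (0.65 ± 0.13) and *XTH14*, and those lower were *XTH29* (-1.02 ± 0.24) and *XTH22* (-0.93 ± 0.36), the touch-induced gene *TCH4* of *A. thaliana* (log2 fold change ± SE). *XTH14*, a gene of root hairs, was at 0 in 9 libraries, and its fitted fold is not given. The 7 not called included *XTH5* (0.66 ± 0.27), *XTH19* (0.46 ± 0.13), *XTH9* (0.31 ± 0.11), *XTH10* (0.31 ± 0.14) and *XTH24* (-0.40 ± 0.20). Another pair, *XTH13* and *XTH26*, had no counts in 16 and 6 libraries.

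**Figure D5:**
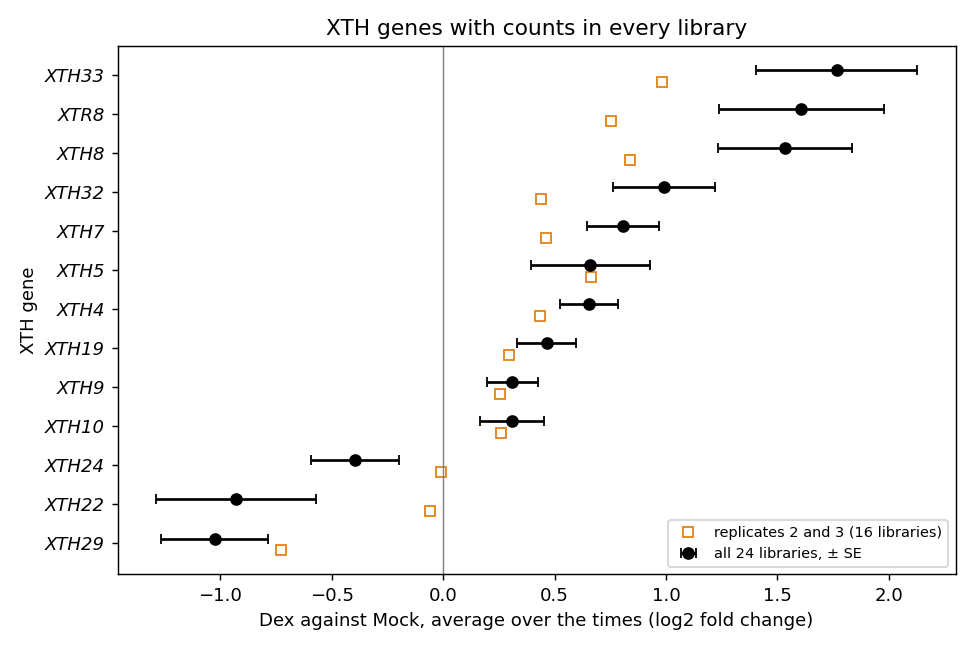
Log2 fold change of Dex against Mock, averaged over the times, for the 13 tested XTH genes with counts in every library, with all 24 libraries (filled, ± SE) and with replicates 2 and 3 alone (open). *XTH33*, *XTR8* and *XTH8* have the highest values (1.77, 1.61 and 1.53), which lie at 0.98, 0.75 and 0.84 without replicate 1.

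The median log2 fold change of the 13 XTH genes with counts in every library was 0.65, and 0.39 for the 10 of them other than *XTH33*, *XTR8* and *XTH8*, beside 0.04 over all genes with counts in every library. With replicates 2 and 3 alone, edgeR called 0 of the 14 XTH genes other than these 3, although 7 had an unadjusted p under 0.05. Among the 4 tested genes other than *XTR8* whose identifier is also given in tables of ChCUC1 binding, 1 was higher (*XTH32*) and 0 were lower.

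At 8 h against 2 h, 5 of the 16 tested XTH genes were called lower and 0 higher in Dex, against 10.7% of all genes lower, and 9 were called lower and 0 higher in Mock, against 15.5%. In Dex 3 of the 5 were *XTH13*, *XTH14* and *XTH26*, and in Mock *XTH13* and *XTH14* were among the 9. These genes lack counts in many libraries, and *XTH14* and *XTH26* are also on the list of root hair genes. In Mock the largest fall among genes with counts in every library was that of *XTH19* (-2.65 ± 0.28, adjusted p = 1.49e-06, edgeR), followed by *XTH33*, *XTH8*, *XTH5* (-1.85 ± 0.53) and *XTH4* (-1.14 ± 0.26). *XTH32*, the relative of *XTR8*, was at 1.16 ± 0.46 in Dex (adjusted p = 0.0781) and -0.03 ± 0.46 in Mock (adjusted p = 0.974) and was not called by edgeR. With replicates 2 and 3 alone *XTH32* was called higher in Dex at 0.89 (adjusted p = 0.0405, edgeR). The median of the 13 genes at 8 h against 2 h was -0.47 in Dex and -0.95 in Mock, beside 0.04 and -0.02 over all genes with counts in every library.

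Other proteins of the xyloglucan and cellulose network were fewer among the identifiers. Expansins loosen walls without cutting polymers, and 6 of 10 tested were called higher in Dex on average and 0 lower, against 4.76% of all genes called higher. For 9 of the 11 expansins with an identifier it comes only from tables of genes that changed in the same libraries, so that this count is not independent evidence either. Among those with counts in every library the largest was *EXPA11* (1.62 ± 0.39), and *EXPA8* (1.04 ± 0.25) and *EXPB3* (0.89 ± 0.20) followed. At 8 h against 2 h, 6 expansins were lower in Dex (10.7% of all genes) and 7 in Mock (15.5% of all genes). In both treatments they included *EXPA14*, *EXPA17* and *EXPA18*, which had no counts in 7, 9 and 13 of the 24 libraries, and *EXPA18* is on the list of root hair genes. *EXPA8* fell in both, by 2.25 on the log2 scale in Dex (adjusted p = 0.00369) and by 2.42 in Mock (adjusted p = 0.00189, edgeR). Of 4 genes of xyloglucan synthesis and trimming, *XLT2*, a galactosyltransferase that decorates xyloglucan, was higher in Dex at 0.82 ± 0.15 and *BGAL10* at 0.64 ± 0.13, while the backbone synthases *CSLC4* (0.17 ± 0.07) and *CSLC12* (0.51 ± 0.32) were not called. At 8 h against 2 h, *CSLC12* was lower in Dex (-2.62 ± 0.59, adjusted p = 0.00382) and in Mock (-1.68 ± 0.62, adjusted p = 0.0470, edgeR), and *BGAL10* was at -0.53 ± 0.26 in Dex (adjusted p = 0.157) and was called lower in Mock (-1.09 ± 0.26, adjusted p = 0.00446, edgeR). Of 3 cellulose synthesis genes, *CESA5* was called higher in Dex on average (0.72 ± 0.16). At 8 h against 2 h, *CESA7* was called lower in Dex (-0.77 ± 0.19, adjusted p = 0.00571) and in Mock (-0.75 ± 0.19, adjusted p = 0.00510, edgeR). *KOR1* was called lower in Mock alone (-0.75 ± 0.22, adjusted p = 0.0144, edgeR). With replicates 2 and 3 alone, edgeR called 149 of 21681 genes in the average of Dex against Mock. The averages were then smaller, at 0.83 for *EXPA11*, 0.66 for *EXPA8*, 0.50 for *XLT2* and 0.35 for *BGAL10*. No gene of these lists was called in that average.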

How the data were processed

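Per the labels, poly(A) RNA was sequenced from directional libraries, reads were aligned with STAR 2.4.2a and counted per gene with HTSeq 0.5.4p1, and the authors used DESeq. What the authors deposited are raw counts per gene, as whole numbers. Not given in the sources used here are genome build, annotation and strand setting, so overlapping antisense genes cannot be told apart and no sequence is printed. Reads without a gene (5.65% to 15.8%) and ambiguous reads (0.192% to 0.370%) were left out.

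Counts were fitted with edgeR 4.0.16 in R 4.3.3 (glmQLFit, robust, TMM, 24 libraries, 1 coefficient per group, two-sided). The filterByExpr rule, set to a minimum count of 10, kept 21689 genes, over which p was adjusted after Benjamini and Hochberg. Log2 CPM used a prior count of 2. The test was also run on simulated data, and the outcome is not given here and not used as support. The 3 genes and the lists were chosen with earlier results of these data known. Names come from 4021 identifier pairs in the study's tables. Within each list, the called genes with the largest changes were named, and every tested XTH gene. Alternatives were RLE scaling, no filter, DESeq2 1.42.0, blocks, 1 treatment alone and each library left out. In the main fit replicate numbers were not taken as pairs.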

Additional observations from a re-analysis of the deposited data

How the results depend on the processing

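Leaving out 1 library or 1 replicate number at a time moved the log2 fold changes of these genes more than any other choice. At 8 h against 2 h in Dex, *XTH33* ran from -1.40 to -0.60, *XTH8* from -1.68 to -0.85 and *XTR8* from -0.41 to 0.24. In Mock the same change ran from -2.50 to -1.82 for *XTH33* and from -2.14 to -1.78 for *XTH8*, with the lost calls given in the report, and from -0.43 to 0.00020 for *XTR8*. Steps that were called for none of the 3 genes changed sign in some of these fits. From 4 h to 6 h these were *XTH33* (-1.17 to 0.051 in Dex and -1.09 to 0.25 in Mock), *XTR8* (-0.54 to 1.05 in Dex and -0.13 to 0.84 in Mock) and *XTH8* (-1.25 to 0.031 in Dex and -0.64 to 0.20 in Mock). From 6 h to 8 h these were *XTH33* (-0.83 to 0.34 in Dex and -1.30 to 0.018 in Mock), *XTR8* in Mock (-0.15 to 0.75) and *XTH8* in Dex (-0.80 to 0.43). The step of *XTH33* in Dex at 4 h against 2 h ran from -0.65 to 0.28, and the difference of the Dex response of *XTR8* between 8 h and 2 h from -0.20 to 0.44.

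Counts of called genes over all genes moved as well. For Dex against Mock on average they ran from 0 (without replicate 3) to 4809 (without replicate 2), with 149 without replicate 1. In Dex they ran from 938 to 4436 at 8 h against 2 h, 24 to 1701 at 4 h against 2 h, 0 to 38 at 6 h against 4 h and 0 to 48 at 8 h against 6 h. In Mock they ran from 2008 to 6136, 133 to 4789, 0 to 27 and 4 to 233 in the same comparisons. The interaction ran from 0 to 2. DESeq2 called 65 genes in Dex and 54 in Mock at 6 h against 4 h, 77 in Dex and 232 in Mock at 8 h against 6 h, and 2 in the interaction. With 1 treatment fitted alone, 11 genes in Dex and 5 in Mock were called at 6 h against 4 h, and 37 in Mock at 8 h against 6 h.

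In Mock at 8 h against 2 h the call of *XTH33* was also lost with no filter on low counts (-2.12, adjusted p = 0.0510), with a replicate block (-2.16, adjusted p = 0.0510) and with Mock libraries alone (-2.13, adjusted p = 0.0722), by edgeR. With DESeq2 it held (adjusted p = 0.0114). A replicate block within each treatment called *XTH8* in Dex at 8 h against 2 h (-1.38, adjusted p = 0.00683, edgeR), and called 1917 genes in Dex at 4 h against 2 h, 42 in Dex and 29 in Mock at 6 h against 4 h, and 59 in Dex and 163 in Mock at 8 h against 6 h. Blocks changed no other call of the 3 genes. Deviations of same-numbered libraries from their group means had r over 0.1 in 13 of 18 pairs across times in Dex (median 0.53). In Mock r was over 0.1 in 10 of 18 pairs (median 0.13), and between Dex and Mock in 2 of 12 (median -0.22). The numbers were thus not taken as pairs between Dex and Mock. Across times those of Dex deviated together in most pairs, which the main fit leaves out of account and the block within each treatment takes in. Apart from the 3 genes, the XTH genes called higher in Dex on average numbered 0 with replicates 2 and 3 alone and 1 with pairs from binding tables, and 0 were lower in both. The r of *XTH33* with *XTR8* in Mock was 0.321 with replicates 2 and 3 alone and 0.317 without the 2 farthest libraries. Why these settings matter was not tested. The lowest counts of the 3 genes were those of *XTH33*, with 7 and 8 in replicate 1 of Mock at 4 h and 6 h. These libraries are not in the groups compared at 8 h against 2 h. They still enter its SE and p, since the spread of a gene was estimated from all 24 libraries. That comparison was not refitted with either of them left out alone.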
